A study of Mus musculus with 20 samples.

Results

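HuD (ELAVL4) is a neuronal RNA-binding protein that recognises U-rich stretches, mostly in the 3′ UTRs of mRNAs, where it stabilises transcripts and raises their translation. The sites described here are those that the interaction map placed on RNAs with no protein product, and on pseudogenes, which are copies of genes that have lost their coding function. They were taken as all windows listed only under a gene type other than protein coding, leaving out the Y RNAs Rny1 and Rny3. This gave 256 unique windows on 124 genes, out of 2868 windows in the whole map. Of the rest, 2581 windows lay only on protein coding genes, 17 were listed under both kinds of gene and 14 belonged to the Y RNAs.

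The cells were NSC-34, a hybrid line made from mouse neuroblastoma and embryonic spinal cord motor neurons. One line carried His-HA tagged human HuD under a tetracycline-inducible promoter on a lentivirus, and the control line carried only the Tet repressor. The binding sites came from CRAC (cross-linking and analysis of cDNA), in which tagged protein is UV cross-linked to RNA, purified under denaturing conditions and the bound fragments sequenced. Here 3 HuD libraries and 3 control libraries were made, both after 24 h with 10 µg/ml tetracycline by the labels. The text of the study also gives another agent, dose and time for CRAC, so this condition is uncertain. Expression was followed in total RNA and polysomal RNA (2 control and 2 HuD libraries each) and by sequencing of 3′ ends (3 and 3), with HuD induced for 48 h at 2 µg/ml. The labels give no inducer or time for the control cells of these expression libraries, unlike those of CRAC. Whether these controls received the drug is unknown, so its effect cannot be told apart from that of HuD.

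The expression libraries held 21296012 to 36284728 counts for total and polysomal RNA, and 12986862 to 15751036 for the 3′ ends. Elavl4 was at 78.5 and 95.1 CPM (counts scaled to the library total) in control total RNA and at 211 and 240 CPM after induction. Reads were aligned to the mouse genome, so the part of the human transgene that these values capture is unknown. Of the motor neuron markers, Isl1 (34.6 to 47.6 CPM) and Slc18a3 (5.59 to 9.10 CPM) were detected in every total and polysomal library, Chat stayed between 0.448 and 0.611 CPM and Mnx1 was not listed. The neuronal tubulin Tubb3 stood at 559 to 689 CPM, whereas Stmn2 did not exceed 0.419 CPM. Of the glial markers, Gfap reached up to 0.635 CPM and Mbp up to 7.12 CPM. The HuD replicate 1 of total RNA stood apart in its ribosomal RNA, since Yam1 took 1.25% of its counts against 0.0419% to 0.283% in the other 7 libraries. Replicate 1 also held the larger Yam1 share in the other groups. Replicates 1 and 2 had 0.235% and 0.0450% in control total RNA, 0.283% and 0.0508% in control polysomal RNA, and 0.0655% and 0.0479% in HuD polysomal RNA.

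A window is the 7-nt, or in 15 cases 8-nt, sequence around a deletion. The study took such deletions as induced by cross-linking and used them to locate candidate sites. Whether each deletion here came from cross-linking was not tested. Each window has a number of HuD reads covering it, of deletions and of control reads, all pooled over the libraries by the authors, so these values carry no replicate error. The library totals behind the pooled reads are unknown. Every window in the map had at least 6 HuD reads and 3 deletions. Intervals given with shares are Wilson 95% intervals and cover counting error only. Reads with the same random barcode had been collapsed by the authors.

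The sequences that carry the main groups are shown with the window in capitals and 11 nt on each side, as read from the GENCODE M21 transcripts. Positions are 1-based on GRCm38 and span the bases that spell the listed motif. The first set holds highly covered windows of ribosomal, mitochondrial and spliceosomal RNA, with Rnu2-10 standing for the U2 copies:
Yam1, chr17:39847715-39847721, plus strand: guugguggagcGAUUUGUcugguuaauuc
Rn18s-rs5 and Yam1, chr17:39848006-39848012, minus strand: uuauggcccgcACUUACUgggaauuccuc
mt-Te, chrM:14108-14114, minus strand: auuacaacgauGAUUUUUcaugucauugg
mt-Rnr2, chrM:2242-2248, plus strand: uauaaguuugaAAUUUCGguuggggugac
Rnu2-10, chr11:101658288-101658294, plus strand: cuguucuuaucAGUUUAAuaucugauacg
Rnu2-10, chr11:101658278-101658284, plus strand: aguguaguaucUGUUCUUaucaguuuaau

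The second set holds windows on long noncoding RNAs with known names, and on the TEC locus 2900097C17Rik, whose sequence is shared with Gm7292, chosen because these genes were measured in the expression libraries:
Malat1, chr19:5797462-5797468, minus strand: ggagccgagucCCUUUGCugugcugccuu
Neat1, chr19:5845322-5845328, minus strand: aaaggagacuaGAUUUUGggacaguggac
Tug1, chr11:3645141-3645147, minus strand: ccaggggauuuUGUUUUGuuuauauuguc
Snhg3, chr4:132352180-132352186, minus strand: cagcgugcuaaAAUUUUGucuguuacagc
Snhg17, chr2:158356050-158356056, minus strand: gaucccccuccCCUUUAAuuuucuagaug
2900097C17Rik, chr2:156391920-156391926, minus strand: cugugugugugUAUUUGAguguguuugaa

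The third set holds sequences that a noncoding gene shares letter for letter with a coding gene, or with many other copies:
Gm6472 (as in Rps7), chrX:152909543-152909549, minus strand: ugaauucccagAGUUUCAguuguaaagaa
Gm9769 (as in Ptges3), chr6:85844205-85844211, plus strand: cgauuuuauguUGUUUGCgaaaaggagaa
Gm13493 (as in Ppia), chr2:51871230-51871236, minus strand: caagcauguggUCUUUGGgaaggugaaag
RP24-390N7.1 (as in Ccrn4l), chr5:60806180-60806186, minus strand: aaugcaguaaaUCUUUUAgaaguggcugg

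The 256 windows held 92974 HuD reads, 2376 deletions and 2802 control reads, against 176276, 18331 and 253 on the protein coding windows. They took 3.60% of the HuD reads summed over all windows of the map, and 33.1% once the Y RNAs, with 2303825 reads, were left out. These are sums over windows and not counts of distinct reads. A read that covers overlapping windows counts in each, and copies of the same sequence each add their reads. No share was computed with identical sequences counted once. Counted by deletions these shares were 5.36% and 11.1%, and with 1 window per gene, the one with most reads, 10.1% and 32.7%. The reads were concentrated: the 5 most covered gene entries held 60.1% of them and the 15 most covered 81.6%. Reads per window ranged from 6 to 5489 with a median of 84, where protein coding windows had a median of 26.

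The most covered windows together lay in ribosomal DNA sequence. A stretch of chromosome 17 annotated as Yam1 and Rn18s-rs5 spells 18S ribosomal RNA, the RNA core of the small ribosomal subunit, on its plus strand, and carried 12 windows between 39846519 and 39848159. Windows on the minus strand spell its reverse complement and are antisense to 18S. The 6 windows on the plus strand, listed under Yam1, held 19987 HuD reads (2369 to 4509 each), 43 deletions and 1099 control reads. The 6 windows on the minus strand, of which 3 were listed under both genes, held 13738 HuD reads (1515 to 3985 each), 40 deletions and 599 control reads. HuD reads were 18.2 times the control reads on the plus strand and 22.9 times on the minus strand.

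At a single place in the map windows overlapped on opposite strands, and it lay in this stretch. The plus-strand window AAUUAGA had 2644 HuD reads, 3 deletions and 196 control reads. The minus-strand window AAUUUUU, which covers part of the same bases, had 2710 HuD reads, 17 deletions and 197 control reads. Read numbers were thus nearly equal on both strands while deletions were not.

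The tRNA gene mt-Te, which encodes the mitochondrial tRNA for glutamate, carried the most covered window of all 256, GAUUUUU, with 5489 HuD reads, 15 deletions and 34 control reads. The ribosomal RNA genes mt-Rnr1 and mt-Rnr2 carried 4 windows with 1748 HuD reads, 31 deletions and 31 control reads. In mt-Rnr2 the window AAUUUCG had 664 HuD reads and 1 control read.

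Spliceosomal snRNAs, the RNA components of the splicing machinery, carried 28 windows on 18 genes with 15285 HuD reads, 223 deletions and 839 control reads. All 28 had control reads. Most of these windows fell on copies of U2, the snRNA that pairs with the branch point: UGUUCUU was listed in 12 genes with 429 to 769 HuD reads, and AGUUUAA in 8 genes with 761 to 825. Since the 29 nt around each were identical between the copies, these are 2 sequences and not 20 independent sites. Both windows were listed in Gm26316, Gm24950, Gm23971, Rnu2-10, Gm23849, Gm24497, Gm23444 and Gm23472, with 1485 to 1593 HuD reads per gene. Rnu11, the U11 snRNA of the minor spliceosome, had 202 HuD reads and 4 deletions over AAUUUUU.

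Small RNA genes of other kinds were few. The snoRNA entry Gm23262, which lies within the coding gene Eif4g2, carried 3 overlapping windows of 596 to 609 HuD reads, and Snord87 carried 2 windows of 50 and 70. Among miRNA genes, mmu-mir-703 had windows of 500 and 511 HuD reads, and Gm26384 a window of 541. The windows of 511 and 541 reads have the same sequence as far as it could be read, with a flank cut short. They are copies of the same sequence and not independent sites. The mmu-mir-703 window of 500 reads shares its 29 nt with a window of the elongation factor gene Eef1a1, which had 1445 reads. Mir350 had 152 HuD reads, 15 deletions and 1 control read over ACUUUCA. This window overlaps 6 nt at the 3′ end of the mature miR-350-3p and misses its seed, shown here in capitals (bases 2 to 8, RefSeq on GRCm38.p6):
mmu-miR-350-3p: uUCACAAAgcccauacacuuuc

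Of 12 small structured RNAs looked for by name, Rn18s-rs5 and Rnu11 had a window; Rn7sk, Rmrp, Rpph1 and Terc were among those without one.

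**Figure D1:**
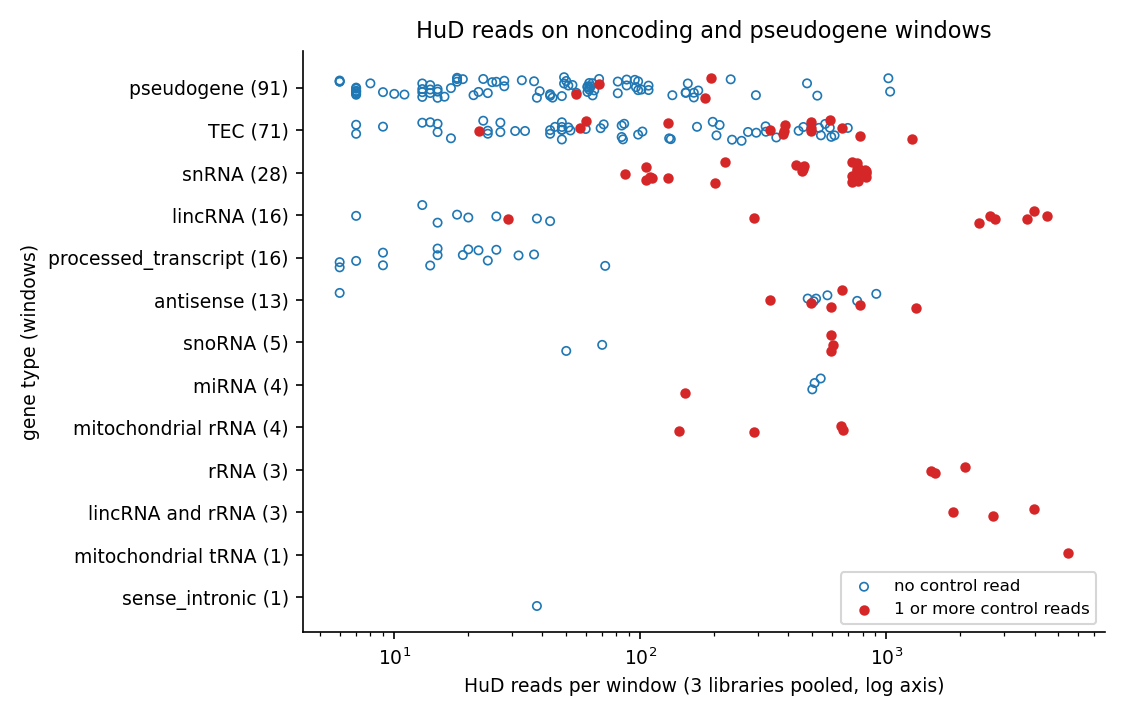
HuD reads per window (x axis, 3 libraries pooled, log scale) by gene type (y axis, number of windows in brackets); each point is a window, filled red where at least 1 control read was counted and open blue where none was. The ribosomal, mitochondrial and snRNA windows are all red, whereas 87 of the 91 pseudogene windows have no control read.

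Long noncoding RNAs carried windows of low coverage. Of 19 long noncoding RNAs looked for by name, 4 had a window: Malat1, Neat1, Snhg3 and Tug1. The nuclear speckle RNA Malat1 had 29 HuD reads over its window, with 9 deletions and 1 control read. The window of Neat1, the scaffold of paraspeckles, was GAUUUUG and had 20 HuD reads and 13 deletions. Tug1 had 24 reads with 3 deletions, and the snoRNA host gene Snhg3 had 26 with 6. Of these 4 genes Malat1 alone had a control read.

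Among host genes outside that list, Snhg17 had 14 HuD reads with 10 deletions over CCUUUAA, and Snhg14, the host of the Prader-Willi snoRNA clusters, had 4 windows with 57 HuD reads and 23 deletions. The 16 windows on 9 genes listed as processed transcripts, which include Snhg3, Snhg14, Snhg17 and Tug1, had 333 HuD reads, 126 deletions and 0 control reads, so that HuD reads were at least 111 times the control reads, taking 3 reads over the class as the limit that a count of 0 allows. Cct6a, a subunit gene of the chaperonin that folds actin and tubulin, is listed there under a noncoding gene type, with 124 HuD reads and 34 deletions in 3 windows.

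Among the remaining lincRNAs, Gm29562 had 289 HuD reads with 19 control reads, in a sequence it shares with Ccrn4l. Gm17203 had 43 reads with 34 deletions, and Gm30948 (38 reads), AI662270 (26), Gm26905 (22 in 2 windows), A330069E16Rik (18) and RP23-302O24.1 (13) had no control read. Gm38194, a locus still to be experimentally checked (gene type TEC), had the highest deletion count outside the shared sequences, 47 in 51 HuD reads.

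Deletions per read separated the classes. The median over the 256 windows was 7.27 deletions per 100 HuD reads, against 19.7 on protein coding windows. At least 50 deletions per 100 reads were found in 35 windows (13.7%), and in 20.3% of the protein coding windows. The medians were lowest in the ribosomal windows (0.215 and 0.264 in the 2 groups listed with Rn18s-rs5), and the mitochondrial tRNA window had 0.273. They were 0.762 in miRNA genes, 0.851 in snRNAs, 1.21 in antisense genes, 2.01 in snoRNAs and 2.08 in the mitochondrial rRNAs. Pseudogenes reached 16.8 and processed transcripts 38.4. The window UAUUUGA, shared by 2900097C17Rik and Gm7292, had 24 deletions in 24 reads in each gene. Every window had to hold 3 deletions, so in a window with few reads the rate could not be low.

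**Figure D2:**
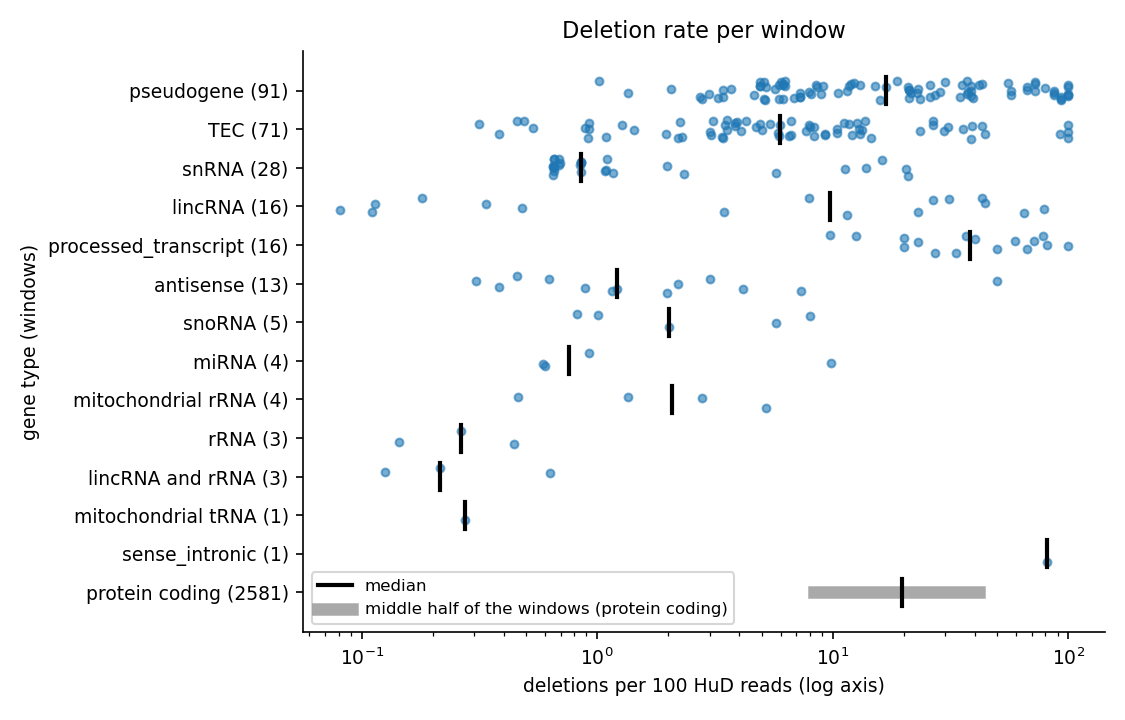
Deletions per 100 HuD reads (x axis, log scale) for each window, by gene type (y axis, number of windows in brackets); points are windows, black bars are medians, and the grey bar spans the 25th to 75th percentile of the protein coding windows. Ribosomal and mitochondrial windows and 26 of the 28 snRNA windows lie to the left of the protein coding median of 19.7, and 14 of the 16 processed transcript windows to its right.

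Control reads were the other difference between classes. At least 1 control read was counted in 76 of the 256 windows (29.7%, interval 24.4 to 35.6%) and in 86 of 2581 protein coding windows (3.33%, 2.71 to 4.10%). Pseudogenes were close to the coding windows, with 4 of 91 (4.40%, 1.72 to 10.8%). Per 1000 HuD reads there were 54.9 control reads on snRNAs, 47.4 and 37.4 on the groups listed with Rn18s-rs5, 2.22 on pseudogenes and 1.44 on protein coding windows. No control deletion was left in any of the 256 windows, in a map for which the authors had penalised or removed places with control signal.

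The windows had been scored against a U-rich weight matrix, so the core UUU is in part a property of the selection. UUU stood at positions 3 to 5 in 215 of the 241 windows of 7 nt (89.2%, 84.7 to 92.5%) and in 97.2% of the protein coding windows (96.5 to 97.8%). Pseudogene windows carried it in 84 of 86 (97.7%, 91.9 to 99.4%) and the other classes together in 131 of 155 (84.5%, 78.0 to 89.4%). Of the 26 windows without UUU, 12 were the UGUUCUU of U2 copies, 4 lay in the 18S stretch, the windows ACUUACU and AAUUAGA among them, and 3 were UCUUCUG, in Cct6a, A330069E16Rik and RP23-394K8.5, with the same surroundings. With windows of identical surroundings counted once, UUU stood in 93.4% (88.5 to 96.3%). Before the core, C was found in 43.3%, A in 33.5% and G in 23.3% of the windows, and in 40.9%, 31.2% and 28.0% on protein coding genes. U followed the core in 40.9% (34.6 to 47.6%) and in 53.0% on protein coding genes (51.0 to 55.0%). With identical surroundings counted once these shares were 47.7% (40.0 to 55.6%) and 53.3% (51.3 to 55.4%), with overlapping intervals.

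Many of these sequences are not particular to the noncoding gene. The window and 11 nt on each side could be read in full for 243 of the 256 windows. The same 29 or 30 nt occurred in a protein coding transcript from elsewhere in the genome for 141 of them (58.0%, 51.7 to 64.1%), and for 95 of 2536 protein coding windows in a transcript of a different coding gene (3.75%, 3.07 to 4.56%). A further 34 occurred only in other noncoding transcripts, 7 in a coding transcript that overlaps at the same place, and 61 (25.1%, 20.1 to 30.9%) in no other transcript. These 61 held 43458 HuD reads, mainly ribosomal and mitochondrial. The search covered annotated GENCODE M21 transcripts only. Copies of a sequence elsewhere in the genome were not looked for, so these 61 need not be unique in it. The 243 sequences reduced to 165 distinct ones.

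The classes differed in this respect. Of 80 pseudogene windows 66 matched a coding transcript (82.5%, 72.7 to 89.3%), as did 52 of 71 TEC windows and all 13 antisense windows. Of the 28 snRNA windows 24 matched only other noncoding transcripts. Of the 16 processed transcript windows 13 occurred in no other transcript, among them those of Tug1, Snhg3, Snhg14 and Snhg17. Of the 16 lincRNA windows 11 did, of which 6 were the 18S windows of Yam1; without Yam1 it was 5 of 10, Malat1 and Neat1 included.

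**Figure D3:**
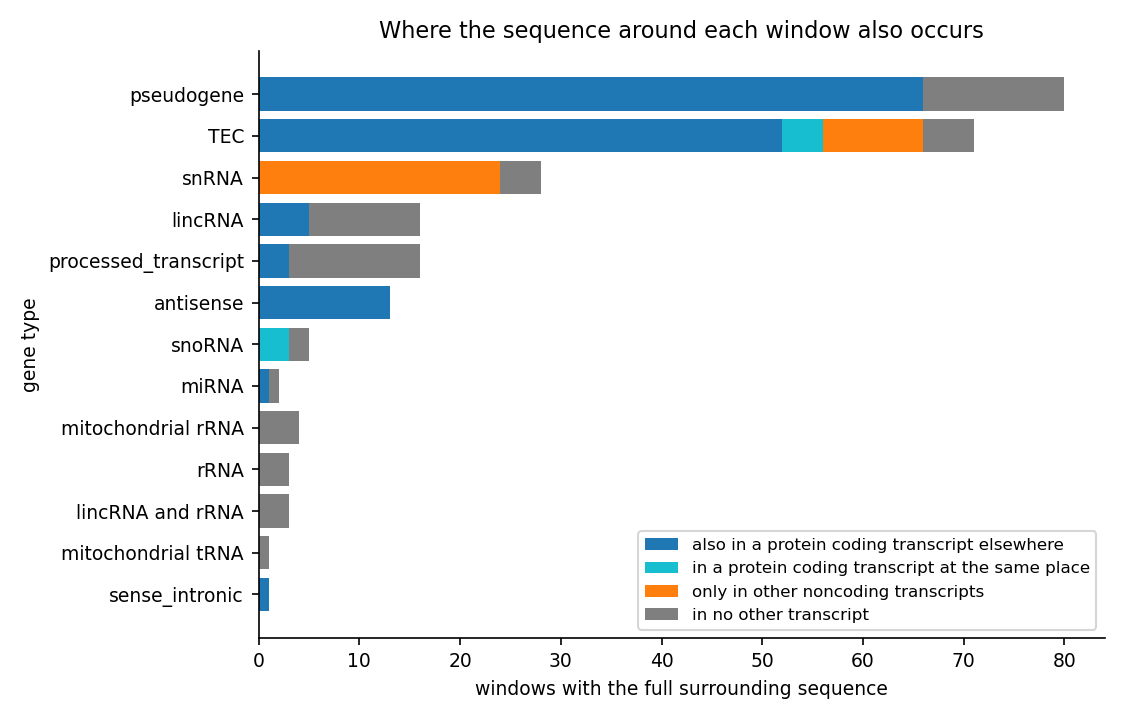
Number of windows (x axis) of each gene type (y axis) whose 29 or 30 nt also occur in other transcripts; bar colours give the kind of transcript. Pseudogene, TEC and antisense bars are mostly dark blue (66 of 80, 52 of 71 and 13 of 13), snRNA mostly orange (24 of 28), and lincRNA and processed transcript mostly grey (11 of 16 and 13 of 16).

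For 125 windows on 59 genes the matching coding sequence was itself a window of the map, which allowed a comparison of the pooled reads at the copies. Where more than 1 coding window held the sequence, the most covered one was taken. This choice favours lower values on the noncoding copy. HuD reads were equal in 32 of the 125 pairs, within 10% in 79, lower on the noncoding copy in 81 and higher in 12. Deletions were equal in 95. The log-scale Pearson correlation over these pairs was 0.98, as a description of copies that share their sequence. The map does not tell whether reads that fit both copies were counted at each, and this was not tested.

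The largest family belonged to Ccrn4l, the circadian deadenylase also named nocturnin. It had 45 windows of its own with 14699 HuD reads, and 37 of these had an identical window on a noncoding gene. The 57 noncoding windows of the family lay on 5 genes: RP24-390N7.1 on chromosome 5, Gm29084 on chromosome 1, Gm38279, Gm37917 and Gm29562. RP24-390N7.1 alone had 42 windows, counting those with no coding partner in the map, with 13908 HuD reads, 452 deletions and 78 control reads. The antisense gene Gm29084 had 12 windows with 7935 HuD reads, each at 97.7 to 99.4% of the Ccrn4l window. Pairs with Ccrn4l ranged from 22.3% to 161% of the coding reads over all 5 genes.

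Pseudogenes of ribosomal and housekeeping genes made up most other pairs. None of the 61 pseudogene windows had more reads than its coding partner, which was the most covered coding window with that sequence. Gm6472, a processed pseudogene of the small-subunit protein gene Rps7, had 1036 and 1019 HuD reads, where Rps7 had 1059 and 1042. Its window AGUUUCA held 119 deletions, the most of the 256. Gm9769 equalled Ptges3, the gene of the Hsp90 co-chaperone p23, in all 4 windows (33 to 524 reads), and Gm5641 equalled Hnrnpa3, which encodes an mRNA-packaging protein, in 4 windows (153 to 172 reads). In 9 pseudogenes of Ppia, which encodes the prolyl isomerase cyclophilin A, the same window had 14 to 18 reads, where Ppia had 18, and 13 deletions each. In 5 pseudogenes of Rps15a it had 43 to 81 reads, where Rps15a had 81. The unprocessed but transcribed pseudogene 6820431F20Rik had 10 windows with 869 HuD reads, 54 deletions and 15 control reads. Gm9800 had 217 HuD reads in 3 windows, Gm28437 had 19, and the sense intronic RP23-381G13.3, which is no pseudogene, had 38 reads with 31 deletions. By symbol, 10 of the genes with a window were ribosomal protein pseudogenes.

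**Figure D4:**
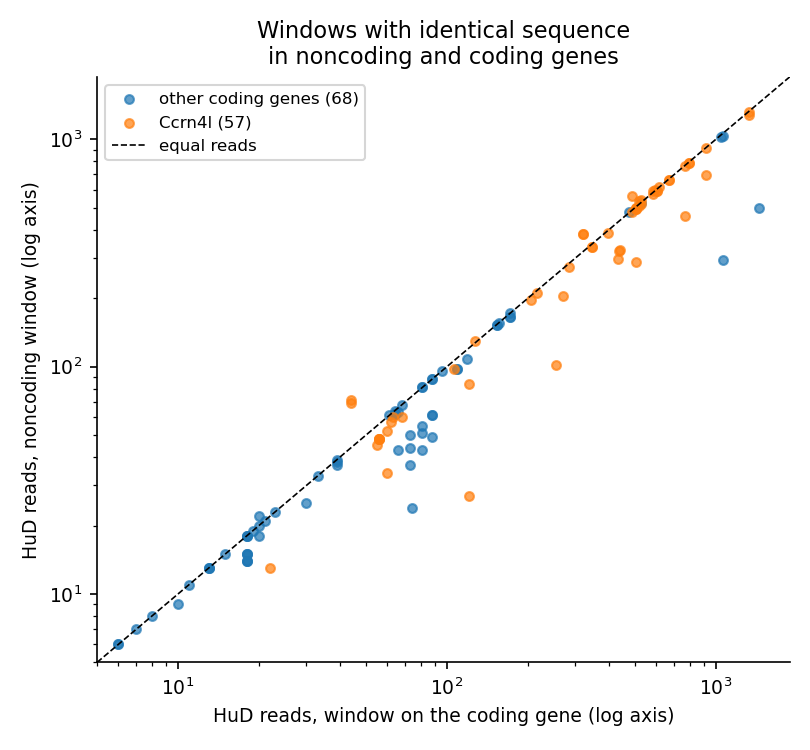
HuD reads on a noncoding window (y axis) and on the most covered coding window with the same 29 or 30 nt (x axis), both on log scales. Points are the 125 pairs, orange for Ccrn4l (57) and blue for other coding genes (68), and the dashed line marks equal reads. Most points lie on or just below the line, 81 of them below it and 12 above.

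Coverage was set beside transcript level, taken as FPKM (counts scaled to library size and transcript length) in control total RNA. Over 113 windows on 51 genes, log2 coverage and log2(FPKM + 0.1) had a Pearson r of 0.34 and a Spearman rho of 0.17. Without the rRNA and mitochondrial genes, a set chosen after seeing the data, r was 0.048 over 99 windows. These points share genes and sequences, so the values are descriptive. The libraries were poly(A)-selected, and no snRNA gene was among the members tested in them.

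Expression could be tested for 52 of the 124 genes, among them 18 processed pseudogenes, 9 processed transcripts and 8 lincRNAs by the gene types of the count table. Their CPM are scaled to library totals with TMM normalization. The highest levels per length in control total RNA were Yam1 at 766 ± 727 FPKM, mt-Rnr2 at 703 ± 145, mt-Rnr1 at 356 ± 60.4, Cct6a at 174 ± 17.7 and Gm6472 at 51.0 ± 0.0409 (SD, n = 2). Yam1 varied more than any of the other 4 genes. Counts were per gene, so those of Cct6a can include RNA that encodes the chaperonin subunit. In bulk samples, fewer cells of a kind and less RNA per cell cannot be told apart. The study's methods give these libraries as biological duplicates, and the 3′ end libraries as biological triplicates.

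Total RNA was compared between HuD and control cells to ask whether the bound noncoding RNAs changed in level. By the study's methods, total RNA too was extracted from pooled sucrose fractions of a cytoplasmic lysate. For nuclear RNAs such as Malat1 and Neat1 the values may therefore not give the level in whole cells. None of the 52 genes passed the adjusted threshold of 0.05 in edgeR's quasi-likelihood test, and neither did any of the 14906 genes tested (0%). DESeq2 called 0 of the 52 and 1 gene in all. At an unadjusted p under 0.05, 6 of the 52 differed, where 2.64% of all genes did. Of the 6, 5 were higher in HuD cells and 1 was lower, where 1.78% and 0.865% of all genes were. The median log2 change of the 52 was 0.16, and 37 of them were above 0, where 48.7% of all genes were. Over all genes the median was -0.00.

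Neat1 stood at 31.3 and 24.3 CPM in control and at 40.5 and 35.5 CPM in HuD cells, a log2 difference of 0.45 ± 0.15 (SE). Its groups did not overlap, but Neat1 was picked by its small p, and the share of all genes without overlap was not counted. Its adjusted p was 0.9998 by edgeR. Malat1 stood at 130 and 74.9 CPM in control and at 587 and 94.5 CPM in HuD cells, and the log2 difference of 1.73 ± 0.64 rested on HuD replicate 1, since without that library it was -0.12. That is the library with the high Yam1 share, and the part of this in the result was not tested. Kantr stood at 1.37 and 1.60 CPM in control and at 2.79 and 1.95 CPM in HuD cells. Its log2 difference was 0.66 ± 0.24, and 0.39 ± 0.26 without HuD replicate 1. The 4 windows of Kantr held 98 HuD reads, 25 deletions and 0 control reads. They also lay in a protein coding transcript at the same place. The pseudogenes Gm9769 (-0.23 ± 0.10), Rps15a-ps6 (-0.46 ± 0.38) and Tpt1-ps3 (-0.16 ± 0.15) had the smallest p among the lower genes. Leaving HuD replicate 1 out, 2 of the 52 had an unadjusted p under 0.05, where 1.78% of all genes did, and the median of the 52 was 0.18. These were BC002163 and RP23-263B18.4, which were not among the 6, and Neat1 was then at 0.36 ± 0.18.

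Polysomal RNA, which is bound by several ribosomes, was compared in the same way. Of the 52 genes 0 passed adjustment and 0% of all genes did, while DESeq2 called 0 of the 52 and 3 in all. At an unadjusted p under 0.05, 3 of the 52 differed, where 4.17% of all genes did; 1 was higher and 2 were lower, where 2.29% and 1.89% of all genes were. The lower genes were mt-Rnr1, at 208 and 84.3 CPM in control and 63.5 and 79.7 CPM in HuD cells (log2 difference -1.03 ± 0.35), and mt-Rnr2 (-0.70 ± 0.26). The higher gene was the pseudogene Gm9800, at 6.56 and 5.05 CPM in control and 7.83 and 8.66 CPM in HuD cells (0.49 ± 0.18). Gm26691 (1.01 ± 0.49) and Snhg14 (0.23 ± 0.12) followed among the higher genes, and Gm38279 (-0.62 ± 0.30) among the lower ones. The control replicate 1, which is the higher of the 2 control libraries for mt-Rnr1, also held the largest Yam1 share of the polysomal libraries, 0.283%. Without that library the log2 difference was -0.24 ± 0.22 for mt-Rnr1, -0.27 ± 0.22 for mt-Rnr2 and 0.70 ± 0.20 for Gm9800.

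The change of the polysome-to-total ratio with HuD asks whether association with polysomes shifted beyond the RNA level. Of the 52 genes 0 passed adjustment by edgeR, 0% of all genes did, and DESeq2 called 0 of the 52 and 0 in all. At an unadjusted p under 0.05, 4 of the 52 differed, where 0.979% of all genes did; all 4 were lower, where 0.570% of all genes were lower and 0.409% higher. These were mt-Rnr1 (-1.35 ± 0.49), Gm6061 (-1.62 ± 0.68), Gm38279 (-1.03 ± 0.44) and Malat1 (-2.11 ± 0.90). Without total RNA HuD replicate 1 the Malat1 value was -0.26 and the mt-Rnr1 value -1.06 ± 0.54, and 1 of the 52, Gm38279, had a p under 0.05, where 0.67% of all genes did. Without polysomal control replicate 1 the mt-Rnr1 value was -0.55 ± 0.27. Gm13493 (1.02 ± 0.56), Tpt1-ps3 (0.39 ± 0.22) and Gm9800 (0.43 ± 0.25) had the smallest p among the higher genes. This comparison shares libraries with the preceding ones.

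Polysomal and total RNA of control cells were compared to see which of these RNAs were higher or lower in polysomes without induced HuD. Of the 52 genes 0 passed adjustment, where 26 of all genes did (0.174%), and DESeq2 called 0 of the 52 and 67 in all. At an unadjusted p under 0.05, 15 of the 52 differed, where 10.7% of all genes did. Of the 15, 14 were lower in polysomes and 1 was higher, where 6.25% and 4.45% of all genes were. The lowest p belonged to 2900097C17Rik, at 16.5 and 14.7 CPM in total RNA and 11.03 and 10.97 CPM in polysomes (log2 difference -0.51 ± 0.11, with an adjusted p of 0.227 by edgeR). Snhg17 stood at 66.1 and 69.6 CPM in total RNA and 49.4 and 49.8 CPM in polysomes (-0.45 ± 0.10). Snhg3 stood at 9.84 and 10.6 CPM in total RNA and 6.20 and 5.15 CPM in polysomes (-0.84 ± 0.23). In these 3 genes the groups did not overlap, but they were picked by their small p. The share of all genes without overlap was not counted. Tug1 stood at 90.3 and 95.4 CPM in total RNA and 97.9 and 103 CPM in polysomes (0.11 ± 0.10, with an adjusted p of 0.640 by edgeR). Gm38279 (0.82 ± 0.31), Gm7887 (1.03 ± 0.50) and Gm9800 (0.33 ± 0.18) were the leading genes in the other direction.

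This comparison depended on polysomal control replicate 1. Without that library 13 of the 52 genes passed adjustment by edgeR, 10 of them lower in polysomes, where 14.4% of all genes passed and 7.70% were lower. The 10 were mt-Rnr1 (log2 difference -2.01 ± 0.23), mt-Rnr2 (-1.10 ± 0.23), Gm7292 (-1.12 ± 0.22), 1110018N20Rik (-1.40 ± 0.33), AI662270 (-0.56 ± 0.14), Neat1 (-0.65 ± 0.17), Snhg17 (-0.45 ± 0.12), Tpt1-ps3 (-0.70 ± 0.19), 2900097C17Rik (-0.51 ± 0.14) and Snhg3 (-0.99 ± 0.28). The 3 higher ones were mmu-mir-703 (0.71 ± 0.17), Cct6a (0.45 ± 0.11) and Gm7887 (1.63 ± 0.47), of which mmu-mir-703 shares sequence with Eef1a1. The fit then rests on a lone polysomal control library, which is assumed to vary like the other groups. The Cct6a value can include RNA that encodes the chaperonin subunit, since counts were per gene.

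The wider lists behaved as follows in control cells. Of 14 long noncoding RNAs tested, Gas5 (-0.95 ± 0.13) and Snhg6 (-1.24 ± 0.16) fell in polysomes with adjusted p of 0.0289 and 0.0270 by edgeR. Both are snoRNA hosts with no window listed under their own name. Windows listed under snoRNA genes, such as Snord87, were not assigned to host genes. The median of the list was -0.46 against 0.01 over all genes. Of 41 ribosomal protein pseudogenes and 4 small structured RNAs 0 passed adjustment. With HuD, 0 genes of the 3 lists passed adjustment in total RNA, in polysomes or in their ratio.

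**Figure D5:**
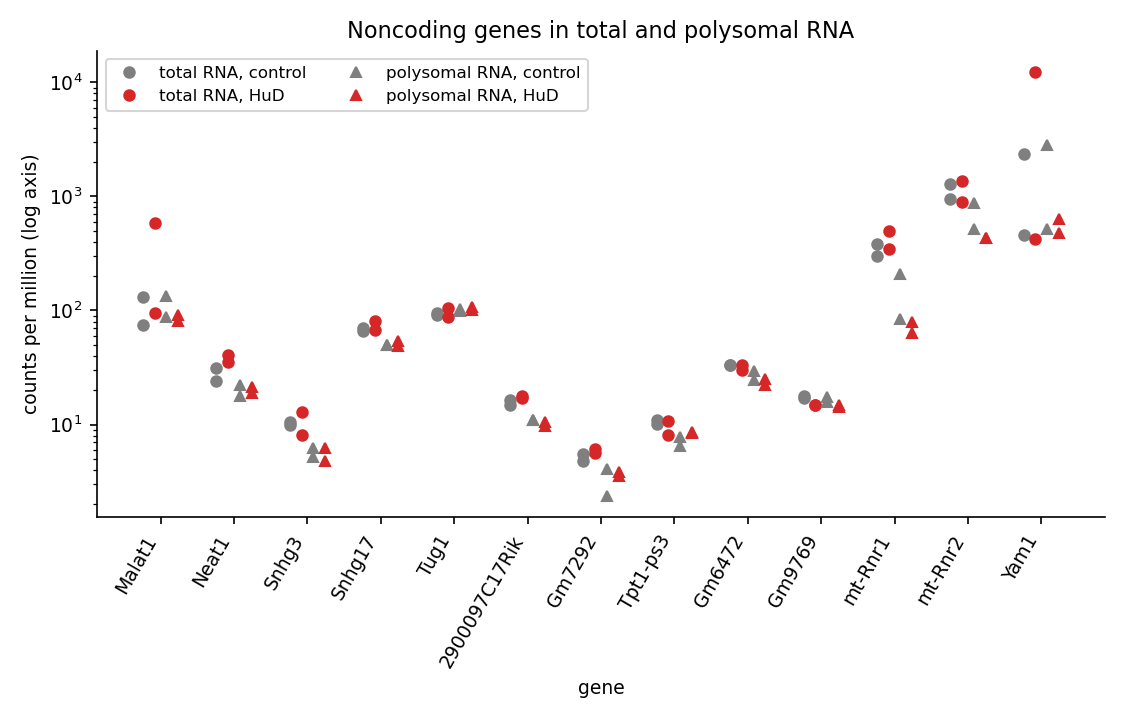
CPM (y axis, log scale) of 13 noncoding genes (x axis) in each total RNA (circles) and polysomal RNA (triangles) library, grey for control and red for HuD cells, 2 libraries per group. A lone red circle stands high for Malat1 (587 CPM) and for Yam1, both in HuD replicate 1; Snhg3, Snhg17 and 2900097C17Rik have all their triangles below their circles.

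At the 3′ ends, 24 of the 124 genes could be tested. Of these 0 passed adjustment by edgeR, where 5 of 9621 genes did (0.0520%), and DESeq2 called 0 of the 24 and 35 in all. At an unadjusted p under 0.05, 0 of the 24 differed, where 5.87% of all genes did, 2.87% higher and 3.00% lower. With the replicate number as a block, which the libraries follow, 217 genes passed (2.26%), and again 0 of the 24. In that fit 2 of the 24 had an unadjusted p under 0.05, 1 higher and 1 lower, where 18.7% of all genes did, 8.64% higher and 10.1% lower. The smallest p belonged to Gm10131, a pseudogene of Erh, at 21.6, 29.7 and 23.3 CPM in control and 18.1, 23.9 and 17.3 CPM in HuD cells (-0.33 ± 0.19, with an adjusted p of 0.915, and 0.133 with the block). Gm6472 stood at 135, 119 and 145 CPM in control and 149, 127 and 181 CPM in HuD cells (0.20 ± 0.15). For both genes the groups overlapped. At each replicate number Gm10131 was lower and Gm6472 higher in HuD cells. With the block the Gm6472 log2 difference was 0.19, with an adjusted p of 0.245 by edgeR. Reads from a pseudogene and its parent gene can be split by the counting, so these values are uncertain. Malat1 differed by -0.08 ± 0.36 and Neat1 by 0.26 ± 0.44 in these libraries, which were made apart from those for total RNA. Next in p were mt-Rnr2 (0.17 ± 0.18) and Tug1 (0.18 ± 0.18) among the higher genes, and Gm7887 (-0.32 ± 0.32) and Yam1 (-0.25 ± 0.25) among the lower ones.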

How the data were processed

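The window table, per the file headers on GRCm38, holds HuD and control coverage (a signal of aligned reads) and deletion counts that the authors pooled over 3 CRAC libraries per group; the authors penalised or removed places with control reads or deletions and scored deletion sites with a weight matrix. Its p-value and score columns were deposited by the authors and serve here only for an alternative selection and for describing the table. Count tables were deposited by the authors as raw counts per gene (TopHat2 2.0.14 and STAR 2.5.3a are named in the submitters' processing notes). Lines with the same position and strand were merged to 1 window, keeping the highest coverage. Listed positions were shifted by 1 nt (plus strand) or 2 nt (minus strand) until the transcript spelled the motif; 247 of 256 windows were placed on GENCODE M21 transcripts. Matches were exact.

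Members and lists were chosen with earlier results of these data known. Named genes were the 15 most covered, all lincRNAs, the most covered gene of each type, the 5 windows with the most deletions, and in each test the 3 smallest p per direction and the 5 highest FPKM. Counts were fitted with edgeR 4.0.16 (R 4.3.3; TMM, filterByExpr, quasi-likelihood, Benjamini-Hochberg over all genes), with 8 libraries of 4 groups in one fit and 6 libraries for 3′ ends, summed per gene over unique ends. DESeq2 1.42.0 was an alternative. The scripts were tested on simulated data. Replicate numbers pair the 3′ end libraries, since deviations from the group means correlated at 0.40, 0.66 and 0.52. A marker gene and a window sequence are not reported here.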

Additional observations from a re-analysis of the deposited data

How the results depend on the processing

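Depth limits the pooled map: library totals are unknown, and a window with few reads cannot show a low deletion rate. The share of HuD reads, summed over windows, was 3.60% of the map. It was 5.36% with deletions in place of reads, 3.50% with the lowest value among lines and 10.1% with the most covered window per gene. With windows listed under both kinds of gene it was 4.06%, and for windows with the authors' combined p under 0.05 it was 3.16%. UUU at positions 3 to 5, 89.2%, was 92.6% with 1 window per gene, 83.2% at combined p under 0.05 and 93.4% with identical surroundings counted once, the last chosen after seeing the data. Windows with control reads, 29.7%, were 22.3% when control reads had to exceed 1% of HuD reads and 47.1% at combined p under 0.05. The match to coding transcripts, 58.0%, lay between 55.6% and 61.3% with shorter or longer flanks or 1 mismatch. The correlation of coverage with FPKM, 0.34, was 0.21 with CPM, 0.024 with deletions and 0.048 without rRNA and mitochondrial genes, the last also chosen after seeing the data. In the count tests, 0 members passed under RLE normalization, no filter, DESeq2 and the replicate block in all 5 comparisons; leaving out 1 library gave 0 to 0 members, except 0 to 13 for polysomal against total RNA in control cells, with 13 reached without polysomal control replicate 1. The replicate block changed no call among members. For polysomal against total RNA in control cells, the block raised all calls from 26 to 41. The labels name no pairing of these libraries beyond the replicate number. Deviations of replicate 1 from the group means correlated at 0.19 to 0.39 between groups, and replicate 1 held the larger Yam1 share in each group. What libraries of the same number share was not tested. At unadjusted p under 0.05 the members were 6, 3, 4 and 15 in the total, polysomal, ratio and control ratio comparisons, and 0 at 3′ ends. With 1 library left out, the log2 change ranged from -0.12 to 2.52 for Malat1 and from -0.37 to 0.027 for Tpt1-ps3 in total RNA, and from -0.031 to 0.32 for mt-Rnr2 at 3′ ends; each changed sign without HuD replicate 1, and the cause was not tested.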
